A study of Mus musculus with 4 samples.

Results

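The Arp2/3 complex is the machine that starts a new actin filament as a branch on the side of an existing one, and the branched networks it builds push the membrane forward in lamellipodia. It has 7 positions, filled by the actin-related proteins ARP2 and ARP3 and by ARPC1 to ARPC5. The 10 mouse genes that can fill them were chosen by gene symbol, without use of their values, among the 16537 genes of the table, and all 10 were listed. Those with a mean of at least 1 TPM were the 9 described here, *Actr2*, *Actr3*, *Arpc1a*, *Arpc1b*, *Arpc2*, *Arpc3*, *Arpc4*, *Arpc5* and *Arpc5l*. The complex is inactive until a nucleation promoting factor, such as a protein of the WASP or WAVE family, binds it. Some positions have a choice of paralogs in mammals, such as ARPC1A or ARPC1B and ARPC5 or ARPC5L, which gives complexes of different makeup.

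The RNA came from YUMM1.7 cells, a line of migratory mouse melanoma cells whose alleles include an activated *Braf* and an inactivated *Cdkn2a*, and the labels give the genotype of all 4 samples as wildtype. Cells were grown overnight on membranes with 1-µm pores and fibronectin on the underside, so that protrusions passed through the pores while the cell bodies stayed on top. There were 2 libraries of protrusions and 2 of cell bodies, labelled as biological replicates 1 and 2, with no treatment beyond the separation, and each was made from 6 membrane inserts. Both fractions therefore came from 1 cell line in culture. A level below is a TPM, the share of a library scaled by transcript length, with a sum of 1000000 in each library. A higher TPM in protrusions is a larger share of the summed TPM of the listed genes, not of all RNA. More copies of an mRNA in protrusions cannot be told apart from less of the other RNAs.

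The libraries held 25854888 and 30994908 reads assigned to genes in protrusions and 29289505 and 25900795 in cell bodies. Protrusion replicate 1 stood apart in 1 respect. The summed level of 17 hepatocyte marker genes was 71.0 and 3.19 TPM in protrusions, against 1.16 and 2.88 TPM in cell bodies, and 14 and 1 of these markers reached 1 TPM in the protrusion libraries, against 0 and 1 in the cell body libraries. Of 6 blood cell markers, 0 reached 1 TPM in any library, with sums of 0.61 and 0.19 TPM in protrusions and 0.172 and 0.32 TPM in cell bodies. Of the melanocyte lineage markers, 4 of 8 were in the table. *Mitf* and *S100b* reached 1 TPM in all 4 libraries, while the pigment genes *Pmel* and *Tyr* stayed below it.

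Most subunit mRNAs had a higher level in protrusions, but few of the differences passed the test. Of the 9 subunit mRNAs with a mean of at least 1 TPM, 8 had a positive log2 fold change (protrusions over cell bodies), and the median over the 9 was 0.38, against -0.07 over all 11400 genes tested. After median centring or a correction for GC content all 9 were positive, *Arpc3* by 0.0039 and 0.0067. In 7 of the 9 both protrusion libraries lay above both cell body libraries, which was so for 26.4% of all genes tested, and in 0 both lay below, against 37.0% of all genes. *Arpc1b* and *Arpc4* were higher in protrusions by the test and 0 were lower (limma, adjusted p under 0.05), where 2.99% of all genes tested were called higher and 4.25% lower. With the replicate number as a block, 5 were higher, *Actr3*, *Arpc1a*, *Arpc1b*, *Arpc4* and *Arpc5*, 0 were lower, and the shares over all genes were 8.08% higher and 13.3% lower. At an unadjusted p under 0.05 the fit without the block held 5 of the 9 higher and 0 lower, against 12.6% and 18.7% of all genes. Limma voom on reads called 2 higher and 0 lower, against 6.82% and 7.80% of all genes. *Actr2* and *Arpc3* were the subunits whose libraries overlapped between the fractions.

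**Figure D1:**
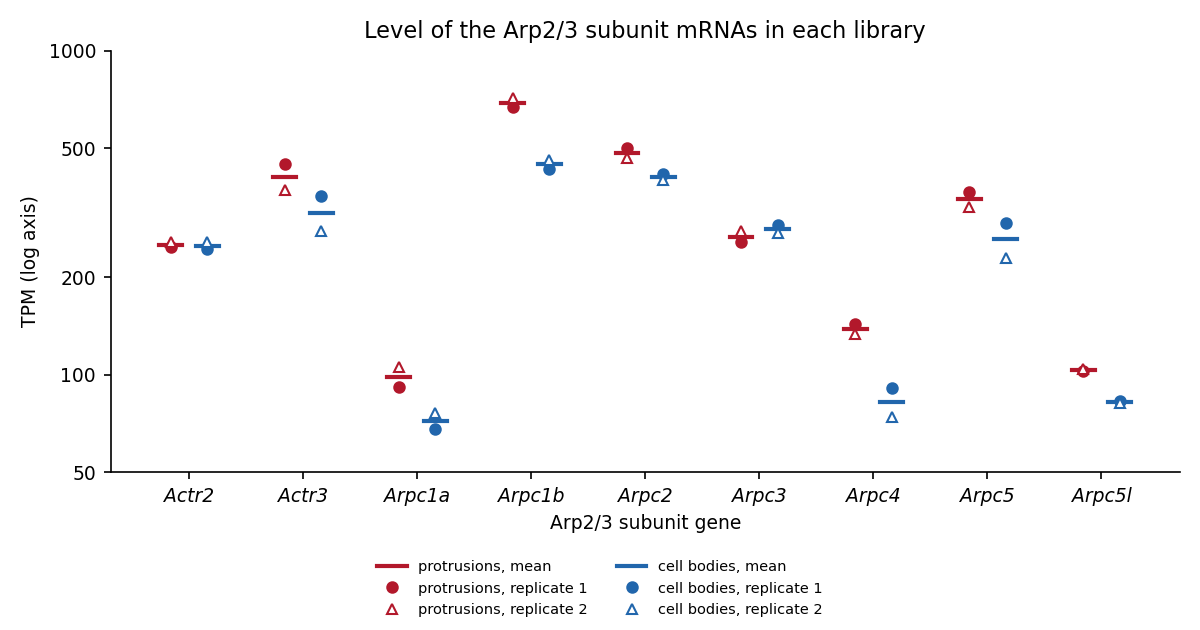
TPM (log axis) of 9 Arp2/3 subunit mRNAs in protrusions (red) and cell bodies (blue); filled circles are replicate 1, open triangles replicate 2 and bars the means. *Arpc1b* is highest in protrusions, at 670 and 713 TPM, and *Actr2* and *Arpc3* are the subunits whose fractions overlap.

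The largest difference of a subunit was that of *Arpc4*. ARPC4 and ARPC2 form the core of the complex, a dimer that holds the other subunits and touches the mother filament. *Arpc4* was at 143 and 134 TPM in protrusions, against 90.8 and 74.1 TPM in cell bodies. Both protrusion libraries were high and the groups did not overlap. The means were 139 ± 6.67 TPM in protrusions and 82.5 ± 11.8 TPM in cell bodies (SD, n = 2 each), a 1.68-fold difference. On the log2 scale it rose by 0.75 (SE 0.14, 95% confidence interval 0.41 to 1.09, adjusted p = 0.0417 from limma), more than 96.9% of the genes tested. *Arpc2*, its partner, was at 501 and 467 TPM in protrusions, against 415 and 399 TPM in cell bodies. Here too the groups were apart, but the log2 fold change of 0.25 did not pass (interval -0.01 to 0.51, limma adjusted p = 0.169). The call of *Arpc4* was lost in limma whenever 1 library, of either fraction, was left out (log2 fold change 0.61 to 0.90, adjusted p 0.0923 to 0.182). It was also lost after correction for GC content (log2 fold change 0.73, adjusted p = 0.051 from limma). With no filter on low values it was lost too (limma adjusted p = 0.094), but there limma called 0 of all 16537 genes. Over the alternatives that kept all libraries the adjusted p of *Arpc4* ranged from 0.00272 to 0.094.

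*Arpc4* lies on chromosome 6 of mm10, chr6:113378113-113390447 on the plus strand. It shares 283 exonic bases with *Ttll3*, a gene for a tubulin glycylase on the same strand, and 10.03% of the 50-base words of its transcripts also occur in those of *Ttll3*. The sources used here do not say how reads that fit both genes were assigned. *Ttll3* itself was at 23.8 and 21.6 TPM in protrusions, against 15.0 and 12.8 TPM in cell bodies. Its log2 fold change was 0.69 (adjusted p = 0.0516 from limma, and 0.0133 with the block), so both genes of the overlap were displaced in the same direction, and the part of the overlap in either value was not tested.

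ARPC1 is the position of a propeller-shaped subunit that takes part in binding the activators. *Arpc1b*, which is the dominant form in blood cells and whose loss in humans causes an immunodeficiency, was the most abundant subunit mRNA, at 670 and 713 TPM in protrusions, against 433 and 460 TPM in cell bodies. The spread within a fraction was small beside the gap between them. It rose 1.55-fold in protrusions, to 691 ± 30.7 TPM, against 446 ± 19.0 TPM in cell bodies (SD, n = 2 each). The log2 fold change of 0.63 (SE 0.11, interval 0.37 to 0.89, limma adjusted p = 0.0375) was the same, 0.63, in replicate 1 and in replicate 2. *Arpc1a* was at 91.4 and 106 TPM in protrusions, against 68.0 and 76.4 TPM in cell bodies. The groups did not overlap, and the log2 fold change was 0.45 (SE 0.13, interval 0.12 to 0.77). This passed only with the block (adjusted p = 0.0894 from limma without it and 0.0284 with it). The call of *Arpc1b* was lost in limma whenever 1 library, of either fraction, was left out (log2 fold change 0.59 to 0.68). With no filter on low values it was lost too (limma adjusted p = 0.0877), but there limma called 0 of all 16537 genes. Over the alternatives that kept all libraries the adjusted p of *Arpc1b* ranged from 0.00459 to 0.0877.

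The ARPC1 genes are neighbours on the plus strand of chromosome 5, *Arpc1a* at chr5:145083869-145108756 and *Arpc1b* at chr5:145114256-145128186. *Arpc1b* overlaps *Pdap1*, a gene on the opposite strand, over 931 exonic bases when all annotated transcripts are taken. The reads are described as strand-specific. *Pdap1* was at 171 and 190 TPM in protrusions, against 143 and 128 TPM in cell bodies. Its log2 fold change was 0.41 (adjusted p = 0.0879 from limma, and 0.0423 with the block), in the same direction as that of *Arpc1b*. The part of the overlap in either value was not tested. Of the 50-base words of *Arpc1b*, 7.38% also occur in transcripts of other genes, most of them in the processed pseudogene *Gm5637*.

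Of the actin-related proteins, which become the first units of the new filament, ARP2 and ARP3 had mRNAs with different values. *Actr2* was at 247 and 256 TPM in protrusions, against 244 and 257 TPM in cell bodies. The libraries overlapped, with a log2 fold change of 0.01 (SE 0.10, interval -0.25 to 0.26, limma adjusted p = 0.966). *Actr3* was at 446 and 372 TPM in protrusions, against 355 and 278 TPM in cell bodies. Replicate 1 was above replicate 2 in both fractions, and the groups were apart by little. Its log2 fold change of 0.38 did not pass without the block (SE 0.16, interval -0.03 to 0.78, limma adjusted p = 0.179) and passed with it (interval 0.12 to 0.64, adjusted p = 0.0438). Within replicates 1 and 2 the log2 ratio of protrusions over cell bodies was 0.33 and 0.42. The value of the fit without the block moved with single libraries. It was 0.20 without cell body replicate 2, 0.245 without protrusion replicate 1 and 0.55 without cell body replicate 1. Each of these fits leaves 1 library without the other fraction of its replicate. *Actr2* is at chr11:20062304-20112951 and *Actr3* at chr1:125392905-125435727, both on the minus strand. For *Actr3*, 26.3% of the 50-base words occur in other transcripts, mainly in the processed pseudogene *Gm8822*, so its level is less certain than those of the other subunits.

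The small subunits ARPC3 and ARPC5 sit at the edges of the complex beside ARP3 and ARP2. *Arpc3*, which the study used as an evenly distributed control, was at 256 and 277 TPM in protrusions, against 289 and 273 TPM in cell bodies. The libraries overlapped around a log2 fold change of -0.08 (interval -0.34 to 0.19, limma adjusted p = 0.667). *Arpc5* was at 366 and 329 TPM in protrusions, against 294 and 230 TPM in cell bodies. It did not overlap between the fractions, and it passed only with the block (log2 fold change 0.42, interval 0.04 to 0.79, limma adjusted p = 0.131 without the block and 0.0318 with it). Within replicates 1 and 2 its log2 ratio was 0.32 and 0.52. The fit without the block gave 0.24 without cell body replicate 2 and at most 0.59 without another library. *Arpc5l* was at 103 and 104 TPM in protrusions, against 83.2 and 81.7 TPM in cell bodies. Its replicates were the closest of all subunits, but its log2 fold change of 0.33 did not pass (interval 0.07 to 0.59, limma adjusted p = 0.105, and 0.0842 with the block). *Arpc2* and *Arpc5* lie on chromosome 1, at chr1:74236550-74268213 and chr1:152766542-152775580, *Arpc3* at chr5:122391928-122406178 and *Arpc5l* at chr2:39008139-39015872.

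**Figure D2:**
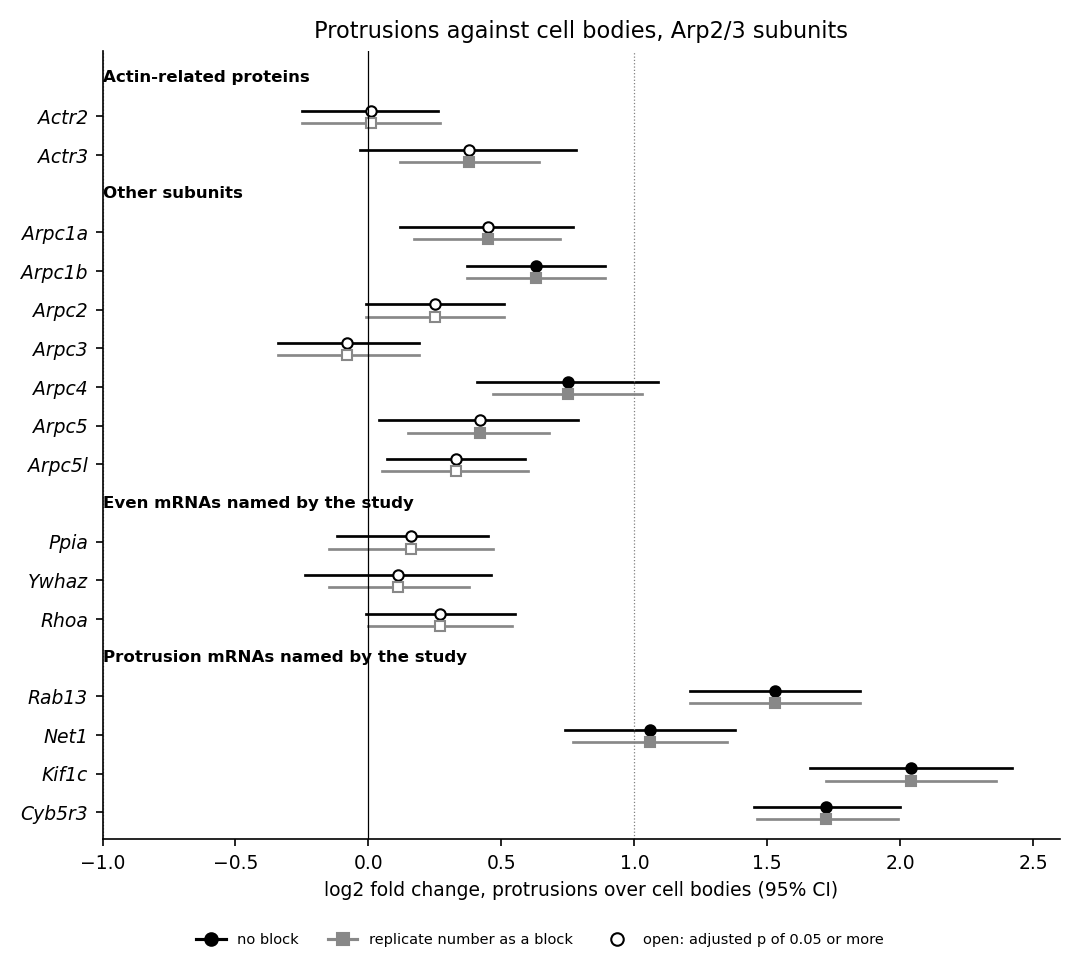
Log2 fold change, protrusions over cell bodies (points), with 95% confidence intervals (lines) for the 9 subunits tested and for mRNAs the study named as even or as protrusion mRNAs, without the block (black) and with it (gray); filled points passed an adjusted p of 0.05. The subunits span -0.08 to 0.75, and the protrusion mRNAs 1.06 to 2.04.

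For scale, the differences of the subunits were smaller than those of the mRNAs the study had singled out as enriched in protrusions. *Kif1c*, which encodes a kinesin motor, had a log2 fold change of 2.04, *Cyb5r3* 1.72, *Rab13* 1.53 and *Net1* 1.06. The mRNAs the study took as even were at 0.27 for *Rhoa*, 0.16 for *Ppia* and 0.11 for *Ywhaz*. *Arpc4*, *Arpc1b*, *Arpc1a*, *Arpc5*, *Actr3* and *Arpc5l*, at 0.75 to 0.33, lay between these groups of values, and *Arpc2*, *Actr2* and *Arpc3* did not exceed *Rhoa*. Of the 9 fitted folds, 0 reached a factor of 2.

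Replicates 1 and 2 differed by subunit in a way that was shared by the fractions. *Actr3* was higher in replicate 1 by 0.26 in protrusions and 0.35 in cell bodies on the log2 scale, and *Arpc5* by 0.16 and 0.36. *Arpc1a* was lower in replicate 1, by -0.21 in protrusions and -0.17 in cell bodies. The sign was the same in both fractions for 7 of the 9 subunits tested (77.8%), against 53.1% of all genes tested. *Arpc1b* had the same value, -0.09, in both.

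The paralogs of a position were compared within each library, where the library total drops out. Their coding sequences, from the GENCODE transcripts of GRCm38, were 72.8% identical between *Arpc1b* and *Arpc1a* over 1107 aligned bases and 71.3% between *Arpc5l* and *Arpc5* over 453. The longest run of bases that a pair shares is shown to let a reader see how short a stretch would fit both genes. It was 21 bases in either pair. Each sequence is written 5′ to 3′ on the coding strand, with the shared run in lower case and the first differing base on either side in capitals.
Arpc1b: CaaccatgaggtgcacatctatG
Arpc1a: TaaccatgaggtgcacatctatA
Arpc5l: ActccagtggcatgaaaaggccT
Arpc5: GctccagtggcatgaaaaggccC
The runs start at coding base 85 in *Arpc1b* and *Arpc1a* and at base 382 in *Arpc5l* and 376 in *Arpc5*, counted from 1 at the start codon.

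*Arpc1b* outweighed *Arpc1a* in every library. The ratio was 7.32 and 6.73 in protrusions, against 6.37 and 6.01 in cell bodies, so *Arpc1b* made up 88.0% and 87.1% of the ARPC1 mRNA in protrusions and 86.4% and 85.7% in cell bodies. The ratio was higher in both protrusion libraries, with a difference of 0.18 on the log2 scale (0.20 in replicate 1 and 0.16 in replicate 2), where the largest gap between replicates of a fraction was 0.12. The exact permutation p was 0.333, two-sided, the smallest that 2 against 2 libraries allow, and 0.5 adjusted over the 3 pairs compared. Human complexes with ARPC1B and ARPC5L are known to promote actin assembly better than those with ARPC1A and ARPC5.

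At the ARPC5 position the order was the other way round, with *Arpc5* above *Arpc5l*. *Arpc5* was 3.54 and 3.17 times the level of *Arpc5l* in protrusions, against 3.53 and 2.81 times in cell bodies. *Arpc5l* made up 22.0% and 24.0% of the ARPC5 mRNA in protrusions and 22.1% and 26.2% in cell bodies. The libraries of the fractions overlapped, and the log2 ratio of *Arpc5l* over *Arpc5* differed by -0.09 (exact permutation p = 0.667, two-sided, 0.667 adjusted over the 3 pairs). Without cell body replicate 2 the difference was 0.08.

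**Figure D3:**
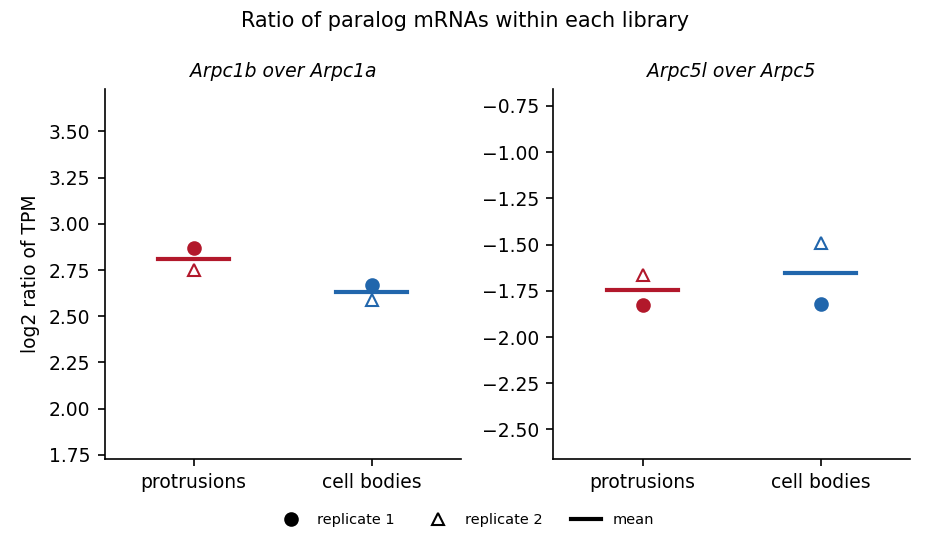
Log2 ratio of TPM of *Arpc1b* over *Arpc1a* and of *Arpc5l* over *Arpc5* in protrusions (red, left) and cell bodies (blue, right); filled circles are replicate 1, open triangles replicate 2 and bars the means, and each vertical axis spans 2 log2 units. The fractions overlap for *Arpc5l* over *Arpc5* only.

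With paralogs added up, the positions of the complex had unequal mRNA levels. ARPC1 was highest, at 761 and 819 TPM in protrusions, against 501 and 536 TPM in cell bodies, and ARPC4 was lowest in every library. The ratio of the highest to the lowest position was 5.31 and 6.12 in protrusions, against 5.51 and 7.23 in cell bodies. The order was the same in all 4 libraries: ARPC1, ARPC2, ARPC5, ARP3, ARPC3, ARP2 and ARPC4. ARPC5, at 451 ± 26.4 TPM, and ARP3, at 409 ± 52.2 TPM in protrusions (SD, n = 2 each), were neighbours within their spread over libraries, as they were in cell bodies, at 344 ± 46.4 and 317 ± 54.6 TPM (SD, n = 2 each). Within each library ARPC5 was the higher. It was at 470 and 433 TPM in protrusions, against 446 and 373 TPM for ARP3. In cell bodies the values were 377 and 311 TPM, against 355 and 278 TPM. ARPC3 and ARP2 lay at 266 ± 14.3 and 252 ± 6.33 TPM in protrusions and at 281 ± 11.1 and 250 ± 9.24 TPM in cell bodies (SD, n = 2 each), so the gap between them was near or above their spread.

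The 10 mRNAs together made up 0.283% and 0.276% of the summed TPM in protrusions, against 0.227% and 0.213% in cell bodies. As a sum this was 2792 ± 47.6 TPM in protrusions and 2200 ± 101 TPM in cell bodies (SD, n = 2 each). Of the positions, ARPC1 held the largest part of this gap in TPM, while the libraries of ARP2 and ARPC3 overlapped between the fractions.

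**Figure D4:**
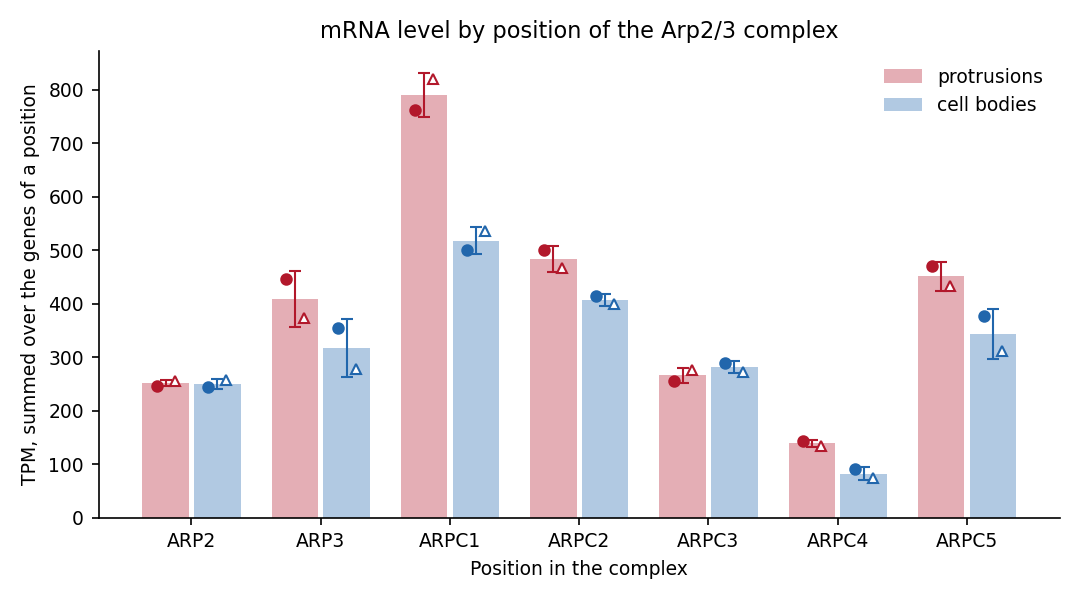
TPM summed over the genes of each position of the Arp2/3 complex, in protrusions (red, left) and cell bodies (blue, right); bars are means, error bars the SD over 2 libraries, filled circles replicate 1 and open triangles replicate 2. ARPC1 is highest, at 761 and 819 TPM in protrusions and 501 and 536 TPM in cell bodies.

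The 3 subunits with the largest log2 fold changes had the highest GC content. *Arpc4*, *Arpc1b* and *Arpc1a* had transcripts of 53.1%, 52.5% and 51.8% GC, and *Actr2* the lowest of the 9, at 40.3%. Across the 9 subunits tested, Spearman's rho of GC content with the log2 fold change was 0.617, and across 11313 genes it was 0.382. These are descriptions over genes that share the same 4 libraries. GC content was taken from the longest transcript that GENCODE tags as basic, or the longest of all where none is so tagged. For *Arpc1b* this transcript is 3105 bases, against a length of 1553 that its TPM imply. After a correction of each library for GC content, *Arpc1b* stayed at a log2 fold change of 0.63 (adjusted p = 0.0448 from limma), while *Actr2* moved to 0.32 (adjusted p = 0.164 from limma) and *Actr3* to 0.60 (adjusted p = 0.0909 from limma). *Arpc3* was at 0.01 after it.

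The upstream regulators of the complex were followed in lists of its activators and inhibitors, fixed with earlier results of these data known. The lists held 46 genes, of which 43 were in the table and 34 were tested. Of these 34, 3 were higher in protrusions and 0 were lower (limma, adjusted p under 0.05), and the median log2 fold change was 0.24. The shares over all genes were 2.99% and 4.25%. At an unadjusted p under 0.05, 11 were higher and 2 lower, against 12.6% and 18.7% of all genes, and limma voom on reads called 4 higher and 0 lower, against 6.82% and 7.80%. With the block 6 were higher, against 8.08% of all genes. Both protrusion libraries lay above both cell body libraries for 19 of the 34 and below for 5, against 26.4% and 37.0% of all genes. *Wasf2* encodes WAVE2, which carries the Rac signal to Arp2/3 in lamellipodia. It was at 42.6 and 41.2 TPM in protrusions, against 23.2 and 25.6 TPM in cell bodies (log2 fold change 0.77, SE 0.13, adjusted p = 0.0367 from limma). *Rac1*, listed with the partners of WASP and known above all as the GTPase that switches on the WAVE complex, was at 395 and 382 TPM in protrusions, against 233 and 184 TPM in cell bodies (log2 fold change 0.90, SE 0.14, adjusted p = 0.0355 from limma). Neither overlapped between the fractions.

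Of the 7 members of the WAVE complex tested, *Wasf2* was the one called without or with the block. The shares of all genes called higher were 2.99% and 8.08%, and the median of the list was 0.30. At an unadjusted p under 0.05, limma held 3 higher and 0 lower, against 12.6% and 18.7% of all genes. Limma voom called 1 higher and 0 lower, against 6.82% and 7.80%. After the GC correction 2 were called higher, against 3.57% of all genes, and with the block added 3 were, against 10.9%. *Nckap1* was at 209 and 197 TPM in protrusions, against 159 and 165 TPM in cell bodies, and *Brk1* at 182 and 188 TPM against 151 and 149 TPM. These scaffold subunits of the complex had log2 fold changes of 0.33 and 0.30 (adjusted p = 0.106 and 0.119 from limma). Of the 7, 6 had a positive log2 fold change. *Cyfip1* lay on the other side, at 99.1 and 84.8 TPM in protrusions, against 105 and 109 TPM in cell bodies. Its log2 fold change was -0.22 (adjusted p = 0.272 from limma), and it was named after its value was seen. Of 10 genes of the WASP family and its partners, 1 was called higher without the block, *Rac1*, against 2.99% of all genes. With the block 3 were, against 8.08%. At an unadjusted p under 0.05, limma held 3 higher and 2 lower, against 12.6% and 18.7% of all genes. Limma voom called 2 higher and 0 lower, against 6.82% and 7.80%. *Wipf1*, which encodes a binding partner of WASP proteins, was at 36.1 and 41.9 TPM in protrusions, against 20.3 and 29.1 TPM in cell bodies (log2 fold change 0.66, adjusted p = 0.0924 from limma, and 0.0115 with the block), and its log2 fold change was 0.41 without cell body replicate 1. *Nck2*, which encodes an adaptor, was at 25.5 and 32.6 TPM in protrusions, against 19.7 and 20.8 TPM in cell bodies (log2 fold change 0.50, adjusted p = 0.106 from limma, and 0.0446 with the block), with 0.32 without protrusion replicate 2. Not all of the list lay on that side. *Nck1*, the paralog of *Nck2*, was at 37.9 and 41.3 TPM in protrusions, against 48.6 and 55.9 TPM in cell bodies (log2 fold change -0.39, adjusted p = 0.113 from limma), and *Fnbp1l* had a log2 fold change of -0.35 (adjusted p = 0.149). Both were named after their values were seen.

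The WASH complex, which activates Arp2/3 on endosomes, had a median log2 fold change of 0.03. Of its 5 members limma called 0, where 2.99% of all genes were higher and 4.25% lower. With the block it also called 0, against 8.08% and 13.3% of all genes. At an unadjusted p under 0.05 there were 0, against 12.6% and 18.7%, and by voom 0, against 6.82% and 7.80%. *Washc4*, *Washc2* and *Washc5*, listed in the table under older symbols, had values of -0.29, -0.15 and 0.12. Among the 4 other activators and branch stabilizers tested limma called 0, with 1 higher at an unadjusted p under 0.05, where 12.6% of all genes were, and 0 by voom. *Cttn*, which encodes the branch stabilizer cortactin, was at 224 and 243 TPM in protrusions, against 192 and 195 TPM in cell bodies (log2 fold change 0.27, adjusted p = 0.152 from limma). *Nckipsd* was at 0.50 and *Jmy* at 0.24 (adjusted p = 0.164 and 0.454 from limma), and *Jmy* ran from 0.0518 without protrusion replicate 1 to 0.44 without protrusion replicate 2.

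Among 8 inhibitors and branch removal factors tested, 1 was higher without the block and 2 with it, against 2.99% and 8.08% of all genes. The median was 0.25. At an unadjusted p under 0.05, limma held 4 higher and 0 lower, against 12.6% and 18.7% of all genes. Limma voom called 1 higher and 0 lower, against 6.82% and 7.80%. The gene called without the block was *Coro2a*, a coronin known from focal adhesions, at 4.73 and 4.09 TPM in protrusions, against 2.01 and 1.42 TPM in cell bodies. Its level was low in every library but the fractions did not overlap (log2 fold change 1.16, SE 0.24, adjusted p = 0.0482 from limma). At a mean TPM of at least 5 *Coro2a* was not tested. Of the 6 members of the list left there, limma called 0, against 5.39% of all genes called higher. *Coro1c*, a coronin of the cell edge, was at 175 and 173 TPM in protrusions, against 138 and 124 TPM in cell bodies. It passed only with the block (log2 fold change 0.41, adjusted p = 0.0765 from limma without it and 0.0352 with it). With the block and the GC correction together *Coro1c* did not pass (log2 fold change 0.36, adjusted p = 0.0828 from limma). *Ap1ar*, which encodes the Arp2/3 inhibitor gadkin, had a log2 fold change of 0.40 (adjusted p = 0.134 from limma). With any 1 of the 4 libraries left out, limma called 0 of the 34 regulators, of which 5 to 7 were higher at an unadjusted p under 0.05, against 7.26% to 10.3% of all genes.

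**Figure D5:**
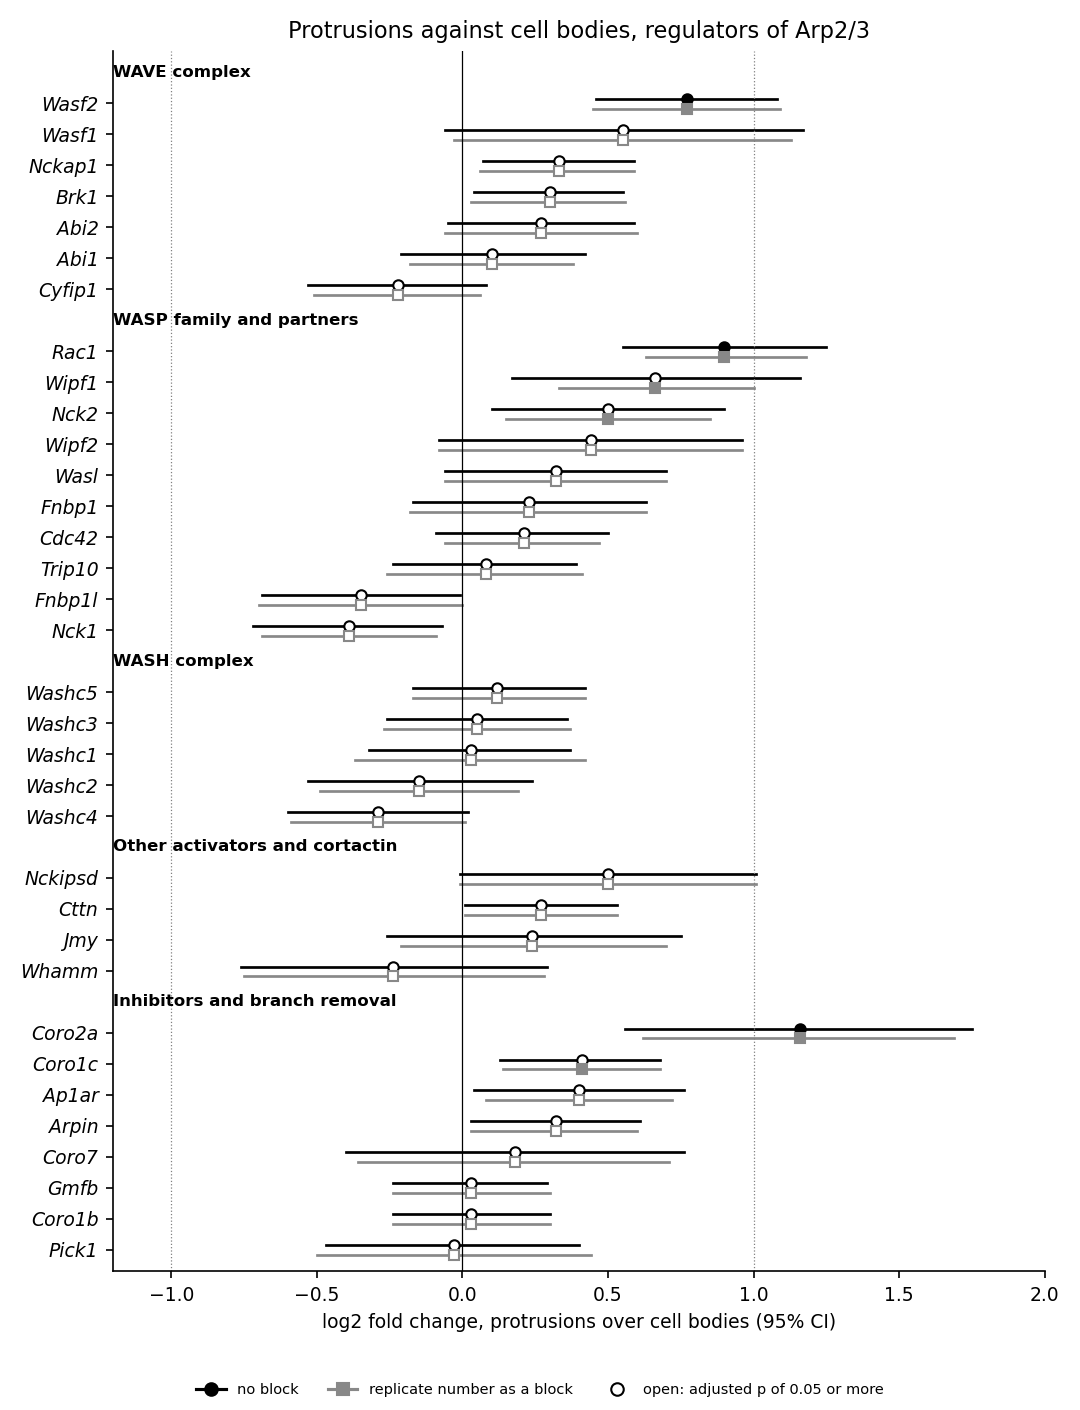
Log2 fold change, protrusions over cell bodies (points), with 95% confidence intervals (lines) for the 34 regulators tested, by list, without the block (black) and with it (gray); filled points passed an adjusted p of 0.05. *Wasf2*, *Rac1* and *Coro2a* passed in both fits, and the WASH complex spans -0.29 to 0.12.

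With protrusion replicate 1 left out, the library with the hepatocyte transcripts, limma called 0 of the 9 subunits, with 3 higher at an unadjusted p under 0.05, against 7.55% of all genes. The log2 fold changes of *Arpc1b* and *Arpc4* were then 0.68 and 0.70 (adjusted p = 0.0714 and 0.0963 from limma) and those of *Wasf2* and *Rac1* 0.75 and 0.88 (adjusted p = 0.0873 and 0.0716), while *Actr3* and *Arpc5* were at 0.245 and 0.34.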

How the data were processed

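RNA-seq libraries of YUMM1.7 protrusions and cell bodies, 2 of each, got their fraction and replicate number from the labels. The authors deposited 1 table, which holds a TPM value of each gene in each library. The reads were single and strand-specific, and mm10 was the genome. As aligner the paper's methods give TopHat, whereas the processing notes of the submitters list STAR along with featureCounts, FastQC and edgeR. The deposited log2 fold change, p-value, FDR and likelihood ratio score are the authors' edgeR results and were not used. The authors' mean log2 CPM set the constant with which whole reads were recovered from ratios of TPM, and all 16537 genes came out whole within 0.01 reads. The 9 tested subunits had 1347 to 18828 reads per library.

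Here limma 3.58.1 in R 4.3.3 was run on log2(TPM + 0.5) with a variance trend and two-sided p-values. It covered the 11400 genes whose mean TPM reached 1, with Benjamini-Hochberg adjustment over all of them. Fold changes on this scale understate those of genes at low TPM. Intervals are 95% confidence intervals. The heading over the study's own TPM values calls the cell body and protrusion samples paired, and deviations within a replicate number correlated at 0.447 over 11400 genes, so a fit blocked on that number is given where it changed a call. Paralog ratios were compared by an exact permutation test.

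The alternatives were other pseudocounts (0.1 and 1), filters (none, or a mean TPM of at least 5), quantile normalization, median centring, the block, a correction for GC content (lowess, span 0.3), limma voom on recovered reads, and each library left out. GC content, overlaps, shared words and coding sequences came from the GENCODE annotation of GRCm38. Of the file's genes, 15710 matched by symbol and 643 by synonym. Starts are printed counting from 1. The subunit genes were chosen by symbol, without use of their values, though earlier results of these data were known. The regulator lists were likewise fixed with earlier results known. The values of 1 subunit gene, which was below the filter, and of 1 pair of paralogs are not reported here. Named are the other 9 subunits and, of each regulator list, the called members and the 3 with the smallest p. *Cyfip1*, *Nck1* and *Fnbp1l* were named besides these, as members on the cell body side. The mRNAs that the study named serve as a scale.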

Additional observations from a re-analysis of the deposited data

How the results depend on the processing

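Of 334 values of single genes under an alternative, 284 kept their direction and side of the threshold, 27 lost a call, 15 gained one and 8 changed sign. The subunits called higher, 2 as reported, numbered 5 with the replicate block, 1 with the GC correction, 6 with both (*Arpc5l* was added), 0 with no filter on low values (6 at an unadjusted p under 0.05) and 0 to 0 without any 1 library (3 to 4 at an unadjusted p under 0.05, limma). The regulators called higher, 3 as reported, numbered 6 with the replicate block, 9 with the block and the GC correction, 0 with no filter and 0 to 0 without any 1 library (limma). No alternative called a subunit or regulator lower. The shares of all genes called higher were 8.08% with the block, 3.57% with the GC correction and 10.9% with both. Over all genes limma without a filter called 0 (3630 at an unadjusted p under 0.05), and the counts of higher and lower genes were 505 and 801 at a mean TPM of at least 5, 777 and 889 with voom on reads, 1238 and 1420 with the block and the GC correction, 21 and 200 without protrusion replicate 1 and 0 without any of the others (1890 to 3148 at an unadjusted p under 0.05). *Actr2* ran from -0.029 to 0.0462 without any 1 library, below 0 without protrusion replicate 2 or cell body replicate 1. *Arpc3* was at 0.0039 with median centring and 0.0067 with the GC correction, with or without the block, *Washc4* at 0.0316 with the GC correction, with or without the block, and *Washc2* ran from -0.3256 to 0.0259, its value above 0 being that without cell body replicate 2. The ratio of *Arpc5l* over *Arpc5* ran from -0.255 to 0.0752 without any 1 library. *Coro2a* had an adjusted p of 0.0511 with a pseudocount of 0.1. With 2 libraries a fraction, leaving out 1 lets the lone library borrow the spread of the other fraction. The cause of these changes was not tested, and the fewer samples of each such fit lower its power by construction.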
